A study of Mus musculus with 2 samples.

Results

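Igf1, Gas6, Mertk, Axl, Pros1, Mrc1, Selenop and Cd163, 8 of the 32285 genes counted, were followed across the macrophage states of MC38 tumors and between 2 treatments. They were picked by symbol when their measured levels in these same libraries were already known, so their levels are given as a description and were not tested. MC38 is a mouse colon cancer line, here grown under the skin of both flanks of male C57BL/6 mice of 6 to 8 weeks. In both groups the tumor of the right flank was heated by microwave ablation (MWA) at a volume near 300 mm3, and the tumor of the left flank, which was not ablated itself, was taken on day 8. The MWA plus TIGIT group, called the combination group below, also received an antibody that blocks TIGIT, an inhibitory receptor of T and NK cells. By the labels it was injected 3 times, at intervals of 3 days from day 1 after MWA. In the study's methods the group without the antibody received an isotype control. A group without ablation and a group given the antibody alone were not analysed here. CD45+ cells, that is, all leukocytes, were sorted from the left tumor and single-cell libraries were made by the 10x Genomics V3.1 chemistry, in which transcripts are counted near their 3' end by unique molecular identifiers (UMIs). There was 1 library per group, and the number of mice behind each is not given in the sources used here. The treatment therefore cannot be told apart from differences between mice, sorts and library preparations. No test between the libraries was possible.

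Macrophages remove dying cells by a process called efferocytosis. GAS6 and protein S, the product of Pros1, are secreted proteins that bind phosphatidylserine on the dying cell and receptor kinases on the macrophage. GAS6 is a ligand of the kinases TYRO3, AXL and MERTK, and protein S of TYRO3 and MERTK. Signalling through these kinases is known to damp inflammatory responses. IGF1 is a growth factor that macrophages secrete in repairing tissue and that acts through the receptor IGF1R. MRC1 (CD206) and CD163 are surface receptors for the uptake of glycoproteins and of hemoglobin complexes, and Selenop encodes a secreted protein that carries selenium. High Mrc1 and Selenop are commonly read as signs of resident-type macrophages.

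The libraries differed in total UMIs and in the median UMIs of the kept cells. The MWA library held 10217 barcodes and 66152465 UMIs, of which 9231 cells with a median of 5366 UMIs were kept, and the combination library held 10190 barcodes and 78751205 UMIs, of which 9127 cells with a median of 6373 UMIs were kept. The libraries shared 37 barcodes, 27 of them among the kept cells. Clusters were named from marker genes, with the ending "-like", and none of the 8 genes was used to build them. Tumor-associated macrophage (TAM)-like cells made up 3800 of the kept cells (41.2%) in the MWA group and 3866 (42.4%) in the combination group. Their 6 defining markers, among them C1qa, C1qb, C1qc and Apoe, summed to 29790 and 34820 CPM, the usual unit of counts scaled to a fixed total, here the summed UMIs of the same cells of a library. Markers of cells that the sort should remove were close to 0 in them. The summed level was 2.68 and 2.46 CPM for the 5 fibroblast markers, 0.291 and 0.369 CPM for the 4 markers of tumor epithelium, with Krt8 at 0 in both libraries, and 2.85 and 3.11 CPM for the 4 endothelial markers.

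The TAM-like cells fell into 5 states. In the order MWA, MWA plus TIGIT, these were an MHC class II state with 1267 and 1210 cells, a Folr2 state with 824 and 907, a hypoxic state with 727 and 706, a cycling state with 818 and 838 and an interferon-induced state with 164 and 205. The Folr2 state was also led by Slc7a2, Arg1 and Cbr2, and heat-shock genes such as Hspb1 and Hspa1b stood among the leading genes of the hypoxic state. The name of the MHC class II state was not firm, since Ccl8 and Selenop also led it. The state was named Folr2-like when doublets were kept or the clustering was coarser. The name of the hypoxic state rested on 1 marker among its leading genes, Ndrg1, beside 1 of the Arg1 list, Hmox1. Monocyte-like cells, which had Ly6c2, Plac8 and Chil3, were split into a C1q-high cluster of 561 and 665 cells and a C1q-low cluster of 114 and 106 cells. All intervals below are 95% intervals of counting error, exact Poisson for CPM, exact binomial for shares of cells and conditional binomial for ratios, and none of them covers variation between mice or libraries. The Poisson and conditional binomial intervals treat UMIs as independent, so they also leave out the spread from cell to cell.

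Most molecules of the 8 genes were counted in TAM-like cells. For Igf1 the share of the library's UMIs that lay there was 96.8% for MWA and 96.7% for the combination. For Gas6 it was 97.4% and 97.0%, for Mrc1 at least 94.7%, and for Selenop 92.6% and 92.4%. The lowest shares were those of Axl, 84.5% and 83.1%, since 8.95% and 11.1% of its UMIs lay in monocyte-like cells. T-like cells, which were about as many as the TAM-like cells, held between 0.268% and 2.68% of the UMIs of these genes.

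**Figure D1:**
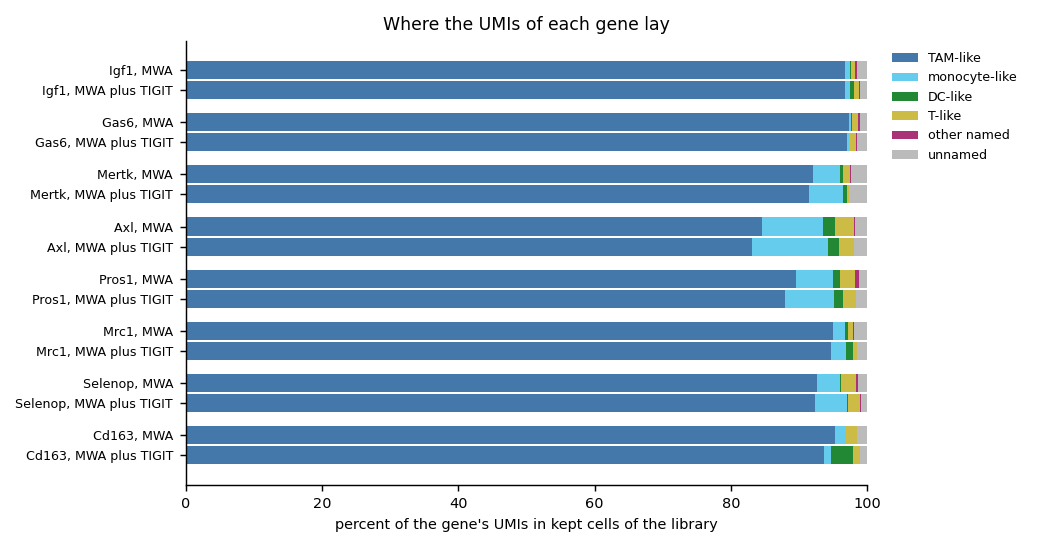
Share of the UMIs of each gene (x axis, percent of the gene's UMIs in kept cells of a library) that lay in TAM-like, monocyte-like, DC-like, T-like, other named and unnamed cells, 1 bar per gene and library. TAM-like cells held from 83.1% (Axl, MWA plus TIGIT) to 97.4% (Gas6, MWA) of the UMIs.

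Promoter sequences are shown for 3 of the genes, Igf1, which differed most between the libraries, Axl, whose ratio differed in sign between states, and Mrc1, whose level followed the C1q genes most closely. Igf1 (ENSMUSG00000020053) lies on the plus strand at chr10:87858265-87937042, Axl (ENSMUSG00000002602) on the minus strand at chr7:25757273-25788705 and Mrc1 (ENSMUSG00000026712) on the plus strand at chr2:14229392-14332057 of the mouse build GRCm38. Each sequence runs 5' to 3' on the strand of the gene, from 250 bases before to 50 bases after a RefSeq start (GRCm38.p6), at chr10:87860861-87861160, chr7:25788684-25788983 and chr2:14229164-14229463. Capitals mark matches, on either strand, of the core of PU.1 sites (GAGGAA, or TTCCTC on the other strand), of AP-1 sites (TGANTCA) and of the CCAAT box (CCAAT, or ATTGG on the other strand).
Igf1: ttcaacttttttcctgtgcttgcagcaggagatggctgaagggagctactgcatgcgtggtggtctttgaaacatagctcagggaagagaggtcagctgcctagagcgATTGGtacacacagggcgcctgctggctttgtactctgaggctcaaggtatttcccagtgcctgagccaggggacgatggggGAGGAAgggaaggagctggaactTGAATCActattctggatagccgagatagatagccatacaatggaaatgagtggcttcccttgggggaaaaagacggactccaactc
Axl: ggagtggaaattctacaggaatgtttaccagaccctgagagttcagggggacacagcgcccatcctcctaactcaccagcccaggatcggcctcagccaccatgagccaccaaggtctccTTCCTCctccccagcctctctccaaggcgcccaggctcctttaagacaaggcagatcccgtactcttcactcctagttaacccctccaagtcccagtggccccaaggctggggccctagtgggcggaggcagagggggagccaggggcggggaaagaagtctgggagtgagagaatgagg
Mrc1: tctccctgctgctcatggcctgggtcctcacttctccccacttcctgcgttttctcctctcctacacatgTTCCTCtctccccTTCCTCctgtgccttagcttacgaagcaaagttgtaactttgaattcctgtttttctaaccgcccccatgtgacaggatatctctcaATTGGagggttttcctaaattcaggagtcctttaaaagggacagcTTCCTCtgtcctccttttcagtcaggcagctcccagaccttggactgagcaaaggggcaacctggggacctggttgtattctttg
PU.1 is a transcription factor of all macrophages. Its core stood once in the Igf1 window, 60 bases before the start, once in the Axl window and 3 times in the Mrc1 window, and 28.3% of 32851 promoters of the same length held it. Of the genes whose windows are not shown, Selenop held it and Gas6, Mertk, Pros1 and Cd163 did not. The AP-1 letters stood in the Igf1 window, 37 bases before the start, and 7.81% of all promoters held them. A CCAAT box was present for Igf1 and Mrc1, and 37.4% of all promoters had one. The core of the interferon-stimulated element, which 3.44% of all promoters held, stood in windows of Selenop and in none of the 3 windows shown. These matches are descriptions of letters and not sites shown to be bound.

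Igf1 was the member that differed most between the libraries. Over all TAM-like cells 1121 UMIs were counted in the MWA group, or 32.6 CPM (30.8 to 34.6), and 2360 UMIs in the combination group, or 54.4 CPM (52.2 to 56.6). The level was 1.67-fold higher in the combination group, a log2 ratio of 0.74 (0.63 to 0.84). With barcodes over 5000 UMIs left out, as the study's methods state, 462 and 298 cells were named TAM-like. The log2 ratio was 0.37 with an interval that takes in 0 (-0.28 to 1.01). These cells were clustered anew, so their states were not the same. A cluster led by Hspb1, with 169 and 101 cells, went unnamed there and was not counted as TAM-like. The cluster named cycling TAM-like there was led by Ccl17, Ccl22 and Ccr7, of which the last 2 are markers of mature dendritic cells. Of 2546 genes that reached 50 CPM in either library, with 20 or more UMIs over both, 7 were at least 1.5-fold higher in the combination group (0.275%) and 4 at least 1.5-fold lower (0.157%). Of the 8 members 5 reached that level, Igf1, Gas6, Axl, Mrc1 and Selenop, and 1 of them, Igf1, was past 1.5-fold. Igf1 was 3 on the list from the highest ratio down. It reached 50 CPM only in the library where it was higher, so its place on that list is partly set by the limit. The median log2 ratio of the 2546 genes was 0.04, with quartiles of -0.03 and 0.11. The interval of the ratio lay above 0 for 42.4% of these genes and below 0 for 18.1%, so an interval that leaves out 0 is by itself no mark of a gene at this depth. The other genes past 1.5-fold are named here after their values had been seen. Slc7a2, C4b, Arg1, Hspb1, Ccl8 and Cbr2 were higher, and Rgcc, Hes1, Hist1h2ap and Gm10076 were lower in the combination group.

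**Figure D2:**
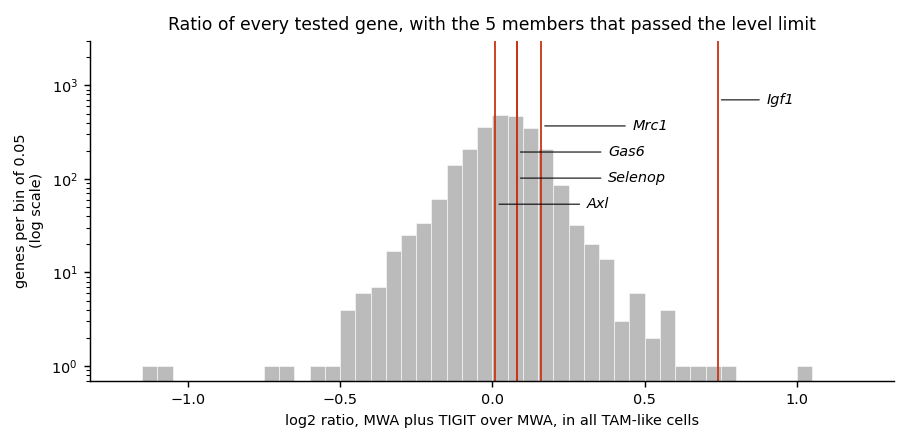
Number of genes (y axis, log scale) by log2 ratio of CPM, MWA plus TIGIT over MWA, in all TAM-like cells (x axis, bins of 0.05), for the 2546 genes that reached the level limit, with lines for the 5 members among them. Igf1 stands at 0.74, while Mrc1 at 0.16, Gas6 and Selenop at 0.08 and Axl at 0.01 lie in the main body of genes.

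Igf1 was also higher in the combination library in each of the 5 TAM-like states. In the hypoxic state, where it was highest in both libraries, it stood at 67.3 CPM (60.3 to 74.96) in the MWA library and 104.2 CPM (96.1 to 112.8) in the combination group. In the Folr2 state the levels were 38.6 CPM (34.2 to 43.3) and 66.8 CPM (61.9 to 72.0). They were 31.1 CPM (27.9 to 34.5) and 47.4 CPM (43.7 to 51.2) in the MHC class II state. In the interferon-induced state the levels were 23.2 CPM (15.7 to 33.2) and 53.0 CPM (43.1 to 64.4), and in the cycling state 13.1 CPM (10.9 to 15.6) and 27.3 CPM (24.4 to 30.4). The intervals of the libraries did not overlap in any of the 5 states. In single TAM-like states 10.1% to 28.1% of all genes tested had a ratio interval above 0. The share of genes with intervals apart in all 5 states was not computed. The log2 ratio was 0.61 (0.42 to 0.80) in the MHC class II state, 0.63 (0.44 to 0.83) in the hypoxic, 0.79 (0.59 to 1.00) in the Folr2, 1.06 (0.75 to 1.37) in the cycling and 1.19 (0.59 to 1.83) in the interferon-induced state. Where Igf1 reached the level limit, the share of all genes at least 1.5-fold higher was 0.682% in the Folr2 state, 0.982% in the hypoxic and 1.92% in the interferon-induced state. In the Folr2 and the interferon-induced state Igf1 reached the limit only through the combination library, where it was higher, so nothing is read from its place there. In the order of the levels, the Folr2 state came after the hypoxic state, with a log2 ratio of Folr2 over hypoxic of -0.80 (-1.04 to -0.57) in the MWA library and -0.64 (-0.80 to -0.48) in the combination library. The interferon-induced and the MHC class II state differed by no more than their counting error in either library, and the cycling state was lowest in both. Monocyte-like cells had almost none. In the C1q-high cluster there were 8 and 17 UMIs, or 2.45 and 3.24 CPM, and in the C1q-low cluster there was no UMI in either library.

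Counted per cell, an Igf1 UMI was found in 661 of 3800 TAM-like cells (17.4%, 16.2 to 18.6) in the MWA group and in 1112 of 3866 (28.8%, 27.3 to 30.2) in the combination group. In T-like cells, which stand for the background of free RNA, the shares were 0.177% and 0.484%, with medians of 3427 and 3592 UMIs per cell against 8689 and 10724 in TAM-like cells. Whether the higher UMI count of TAM-like cells in the combination library came from depth or from RNA per cell was not tested, and the T-like medians of the libraries were close. The libraries differed less after each cell had been thinned to 1000 UMIs, with 13 and 3 TAM-like cells left out as too shallow, when the shares were 3.43% (2.88 to 4.06) and 4.79% (4.14 to 5.51). Cells with at least 3 Igf1 UMIs numbered 114 in the MWA group and 288 in the combination group, and the most in a single cell were 8 and 15. Set against the C1q genes of the same cells, which were themselves somewhat higher in the combination library, Igf1 had 2.26 and 3.46 UMIs per 1000 C1q UMIs. Within the states, of the members that reached the level limit there, 1 at most was past 1.5-fold, and the background differed with the number of cells. In the order higher, lower, the share of genes past 1.5-fold was 0.194% and 0.155% of 2576 in the MHC class II state, 0.682% and 0.321% of 2491 in the Folr2 state, 0.982% and 0.421% of 2138 in the hypoxic state, 0.109% and 0.255% of 2747 in the cycling state and 1.92% and 2.23% of 2602 in the interferon-induced state. In the monocyte-like clusters none of them was past 1.5-fold, where the shares were 0.122% and 0.446% of 2464 genes in the C1q-high and 7.5% and 4.94% of 2813 in the C1q-low cells. Intervals above and below 0 were as common as 24.8% and 15.1% of genes in the MHC class II state, 28.1% and 14.5% in the Folr2, 22.4% and 12.7% in the hypoxic, 24.2% and 12.7% in the cycling, 10.1% and 9.76% in the interferon-induced, 16.6% and 12.1% in the C1q-high and 7.57% and 6.26% in the C1q-low cells.

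The Igf1 difference was as large when the mix of states was held equal. With every state given the mean of its shares in the libraries the log2 ratio stayed at 0.74, and the change of mix alone gave -0.00.

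**Figure D3:**
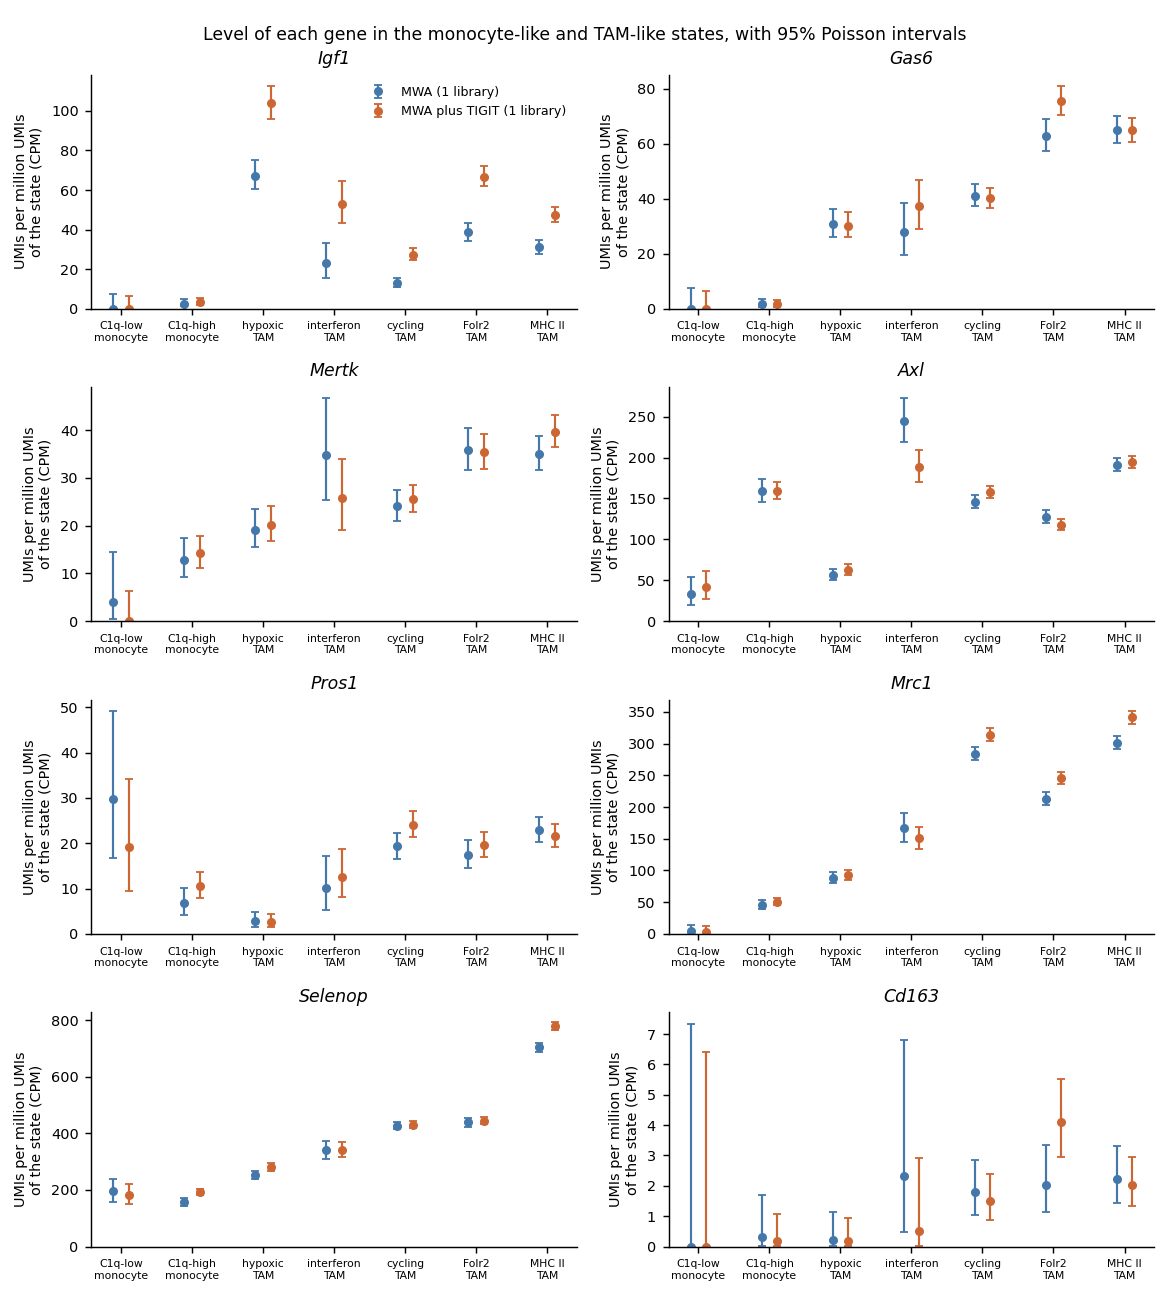
Level of each of the 8 genes (y axis, CPM of the state, scales differ) in 2 monocyte-like and 5 TAM-like states (x axis), 1 point per library with its 95% Poisson interval. Igf1 is highest in the hypoxic state, at 67.3 and 104.2 CPM, where Gas6, Mertk, Axl, Mrc1 and Selenop have lower levels than in the MHC class II state.

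Gas6, which encodes the ligand of AXL, differed little between the libraries and strongly between the states. All TAM-like cells together held 1773 UMIs of it in the MWA library, or 51.6 CPM (49.3 to 54.1), and 2376 UMIs in the combination group, or 54.7 CPM (52.6 to 57.0). The log2 ratio was 0.08 (-0.01 to 0.17). It was highest in the MHC class II state, at 65.0 and 64.9 CPM, and in the Folr2 state, at 62.9 CPM (57.3 to 68.9) and 75.7 CPM (70.4 to 81.2). Those states did not differ beyond counting error in the MWA library, while in the combination library the Folr2 state was the higher. It was the 1 state in which the libraries' intervals for Gas6 did not overlap, with a log2 ratio of 0.27 (0.10 to 0.44). An interval above 0 was found for 28.1% of all genes tested in that state. The cycling state had 41.2 and 40.2 CPM, the hypoxic state 30.8 and 30.3 CPM and the interferon-induced state 27.9 and 37.2 CPM. Monocyte-like cells were near 0, with 5 and 8 UMIs in the C1q-high cluster, or 1.53 and 1.52 CPM, and no UMI in the C1q-low cluster. The T-like cells had 1.06 and 1.58 CPM.

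Pros1, the other ligand of the family and an anticoagulant in blood, followed a different order. It had 596 and 820 UMIs in all TAM-like cells, or 17.4 CPM (16.0 to 18.8) and 18.9 CPM (17.6 to 20.2), with a log2 ratio of 0.12 (-0.03 to 0.28). Its hypoxic state was nearly empty, with 14 and 16 UMIs or 2.82 and 2.72 CPM. The MHC class II state had 22.9 and 21.7 CPM, the cycling state 19.3 and 24.1 CPM and the Folr2 state 17.4 and 19.6 CPM. Unlike Igf1 and Gas6, it was present in the C1q-low monocyte-like cells, with 15 and 11 UMIs or 29.9 CPM (16.7 to 49.3) and 19.1 CPM (9.52 to 34.1). The cycling state was the only TAM-like state in which the interval of its ratio lay off 0, with a log2 ratio of 0.32 (0.05 to 0.60), and 24.2% of all genes tested in that state had an interval above 0.

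Mertk, the receptor of steady-state efferocytosis, was spread more evenly over the TAM-like states. It had 1026 UMIs in the MWA group, or 29.9 CPM (28.1 to 31.8), and 1367 UMIs in the combination group, or 31.5 CPM (29.8 to 33.2), with a log2 ratio of 0.08 (-0.04 to 0.19). The Folr2 state had 35.9 and 35.3 CPM and the MHC class II state 35.1 and 39.7 CPM. It was lower in the cycling state, at 24.0 and 25.6 CPM, and in the hypoxic state, at 19.2 and 20.2 CPM. In the interferon-induced state it had 34.9 CPM (25.4 to 46.6) and 25.7 CPM (19.0 to 34.0), intervals that overlap. C1q-high monocyte-like cells had 12.9 and 14.3 CPM, and in the C1q-low cluster 2 UMIs and 0 UMIs were counted. An unnamed myeloid cluster led by Mcpt2, of 219 and 306 cells, was not counted as TAM-like although its C1q level was 11302 CPM. It had 55.5 CPM of Mertk (35.2 to 83.2) and 63.0 CPM (43.6 to 88.0), from 23 and 34 UMIs. In no TAM-like state did the interval of the Mertk ratio leave out 0. The T-like cells had 10 and 4 UMIs.

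Axl, the receptor that inflammation and interferon are known to raise, had nearly the same level in both libraries. TAM-like cells as a whole held 5070 UMIs or 147.6 CPM (143.6 to 151.8) in the MWA group and 6433 UMIs or 148.2 CPM (144.6 to 151.9) in the combination group, a log2 ratio of 0.01 (-0.05 to 0.06). The interferon-induced state had the highest level in the MWA library, at 244.7 CPM (218.5 to 273.3), and 188.8 CPM (169.8 to 209.3) in the combination library. Its log2 ratio there was -0.37 (-0.60 to -0.15), and 9.76% of all genes tested in this state had an interval below 0. It was the only member below 0 in that sense in any TAM-like state. The state was made of 164 and 205 cells and 316 and 360 Axl UMIs. In the MHC class II state Axl stood at 191.2 and 194.3 CPM, in the cycling state at 146.1 and 158.0 CPM, with a log2 ratio of 0.11 (0.01 to 0.21), and in the Folr2 state at 127.6 and 117.9 CPM. The hypoxic state was lowest of the TAM-like states, at 57.0 CPM (50.6 to 64.1) and 62.9 CPM (56.7 to 69.7). Axl was the only one of the receptors at a TAM-like level in C1q-high monocyte-like cells, with 159.5 CPM in each library, and DC-like cells had 157.4 and 140.2 CPM. The C1q-low cluster had 33.8 and 41.6 CPM. The third receptor kinase of the family, Tyro3, was nearly missing from TAM-like cells, with 4 and 2 UMIs, and lay in T-like cells, with 39 and 47 UMIs or 2.43 and 2.98 CPM.

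**Figure D4:**
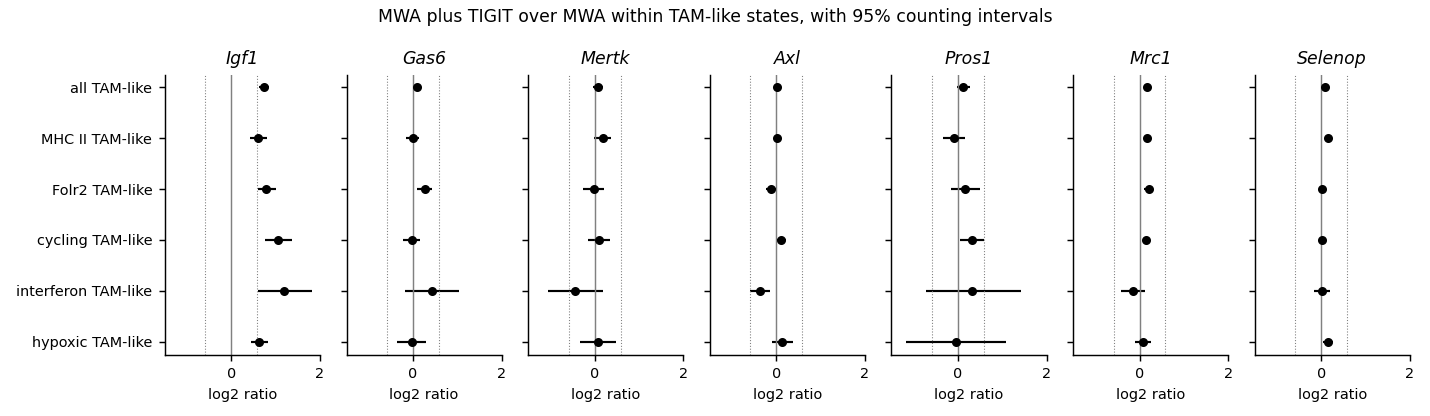
Log2 ratio of CPM, MWA plus TIGIT over MWA (x axis), with its 95% counting interval for the genes other than Cd163 in all TAM-like cells and in each TAM-like state (y axis), with dotted lines at 1.5-fold. The points of Igf1 lie between 0.61 and 1.19, while Axl lies at -0.37 in the interferon-induced state and 0.11 in the cycling state.

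Mrc1 was higher in the combination library by a small amount. It had 8300 UMIs in the MWA group, or 241.7 CPM (236.5 to 246.9), and 11688 UMIs in the combination group, or 269.2 CPM (264.4 to 274.2). The log2 ratio was 0.16 (0.12 to 0.20), which was 350 on the list of 2546 genes from the highest ratio down. Of the TAM-like states the MHC class II state was highest, at 301.1 and 341.4 CPM. The cycling state followed, at 284.3 and 314.3 CPM, and then the Folr2 state, at 212.8 and 245.4 CPM. The intervals of the libraries did not overlap in any of these 3 states, for log2 ratios of 0.18, 0.14 and 0.21, and 24.8%, 24.2% and 28.1% of all genes tested there had a ratio interval above 0. In the interferon-induced state Mrc1 stood at 166.5 and 150.5 CPM with overlapping intervals, and in the hypoxic state at 88.5 and 93.2 CPM. The unnamed cluster led by Mcpt2 stands outside this order. It had 162 Mrc1 UMIs of 414629 in the MWA library, a higher share than in the MHC class II state. In the combination library it had 177 of 539860. C1q-high monocyte-like cells had 46.0 and 50.8 CPM and C1q-low ones 3.98 and 3.47 CPM, from 2 UMIs in each library. In DC-like cells Mrc1 had 41 UMIs or 59.7 CPM (42.9 to 81.0) in the MWA group and 132 UMIs or 148.1 CPM (123.9 to 175.6) in the combination group, a log2 ratio of 1.31 (0.79 to 1.85). Those were 98 and 96 cells, which also held the C1q marker list at 4370 and 5777 CPM, and its part in the difference was not tested. The share of all genes with such a ratio was not computed in DC-like cells. In the C1q-low cluster, of 114 and 106 cells, 7.5% of genes were at least 1.5-fold higher and 4.94% lower. Igf1 had 2 and 16 UMIs in the same DC-like cells.

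Cd163 was scarcely counted in these macrophages. There were 61 UMIs in 50 of the 3800 TAM-like cells of the MWA group and 89 UMIs in 76 of the 3866 of the combination group, or 1.78 CPM (1.36 to 2.28) and 2.05 CPM (1.65 to 2.52), with a log2 ratio of 0.21 (-0.28 to 0.70). The share of T-like cells with a UMI was 0.0253% and 0.0269%, from 1 cell in each library, against 1.32% and 1.97% of TAM-like cells. In the Folr2 state there were 15 and 42 UMIs, or 2.03 CPM (1.14 to 3.35) and 4.09 CPM (2.95 to 5.54), and the log2 ratio was 1.01 (0.13 to 1.97). A single cell held 7 of the 42 UMIs. Of all genes tested in that state 28.1% had an interval above 0, and Cd163 was far below the level limit for that count. In the other TAM-like states its ratios were below 0, with intervals that took in 0. The hypoxic state had 1 UMI in each library and the C1q-low monocyte-like cells had none.

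Selenop was the most counted of the 8 genes and was high in the same states as Mrc1. All TAM-like cells had 16864 and 22465 UMIs, or 491.1 CPM (483.7 to 498.5) and 517.5 CPM (510.7 to 524.3), with a log2 ratio of 0.08 (0.05 to 0.10). The ratio is near the median of all genes. In the MHC class II state the level was 704.1 CPM (688.6 to 719.8) and 779.1 CPM (764.2 to 794.2), well above the Folr2 state with 438.5 and 444.8 CPM and the cycling state with 426.8 and 430.9 CPM. The intervals of the Folr2 and the cycling state overlapped in each library. The interferon-induced state had 340.0 and 341.9 CPM and the hypoxic state 252.0 and 281.9 CPM. Both monocyte-like clusters also held it, at 158.3 and 192.0 CPM in the C1q-high and at 195.1 and 182.0 CPM in the C1q-low cells.

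The hypoxic state set Igf1 apart from the rest of the group. The log2 ratio of the MHC class II over the hypoxic state was -1.12 (-1.34 to -0.90) for Igf1 in the MWA library and -1.14 (-1.30 to -0.98) in the combination library. For Gas6 the same ratio was 1.08 (0.82 to 1.34) and 1.10 (0.87 to 1.34). Mertk, Axl, Pros1, Mrc1 and Selenop also had lower levels in the hypoxic than in the MHC class II state in both libraries, and Cd163 had 25 and 27 UMIs in the MHC class II state against 1 and 1. Over the 7 monocyte-like and TAM-like states, Pearson's r of log2(CPM + 1) was 0.93 and 0.95 between Igf1 and Gas6, 0.96 and 0.97 between Mertk and Mrc1, and 0.93 and 0.92 between Gas6 and Mrc1. It was -0.41 and -0.28 between Igf1 and Pros1. These correlations are descriptions over 7 states of 1 library each, and the monocyte-like states are among the points.

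The members were also followed along the content of C1q, the complement component that marks mature TAMs. For this the monocyte-like and TAM-like cells together were split into 5 bins of equal cell number by the share of their UMIs on C1qa, C1qb and C1qc. From the lowest to the highest bin Gas6 went from 7.55 to 77.0 CPM in the MWA group and from 4.79 to 81.2 CPM in the combination group. Mrc1 went from 43.6 to 282.9 CPM and from 44.1 to 320.7 CPM, and Selenop from 137.2 to 729.5 CPM and from 166.8 to 708.9 CPM. Igf1 was not ordered in this way. In the lowest bin, which held C1q shares up to 0.556% and 891 and 932 cells, it had 26.7 CPM (22.4 to 31.6) in the MWA group and 26.9 CPM (23.2 to 31.0) in the combination group. Above that bin the libraries parted, with log2 ratios of 0.85 (0.63 to 1.07), 0.55 (0.32 to 0.78), 0.74 (0.51 to 0.97) and 0.81 (0.60 to 1.03), against 0.01 (-0.31 to 0.34) in the lowest. The hypoxic state, which had the lowest C1q level of the TAM-like states, 8950 CPM, had an Igf1 ratio of 0.63 (0.44 to 0.83). The bins mix monocyte-like and TAM-like states. The part of that mix in the ratios of the bins was not tested. Axl had 87.9 CPM (80.0 to 96.3) and 119.1 CPM (111.2 to 127.4) in the lowest bin and 179.6 CPM (169.2 to 190.5) and 164.4 CPM (157.2 to 171.9) in the highest. The highest bin held 738 MWA cells and 1085 cells of the combination group.

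**Figure D5:**
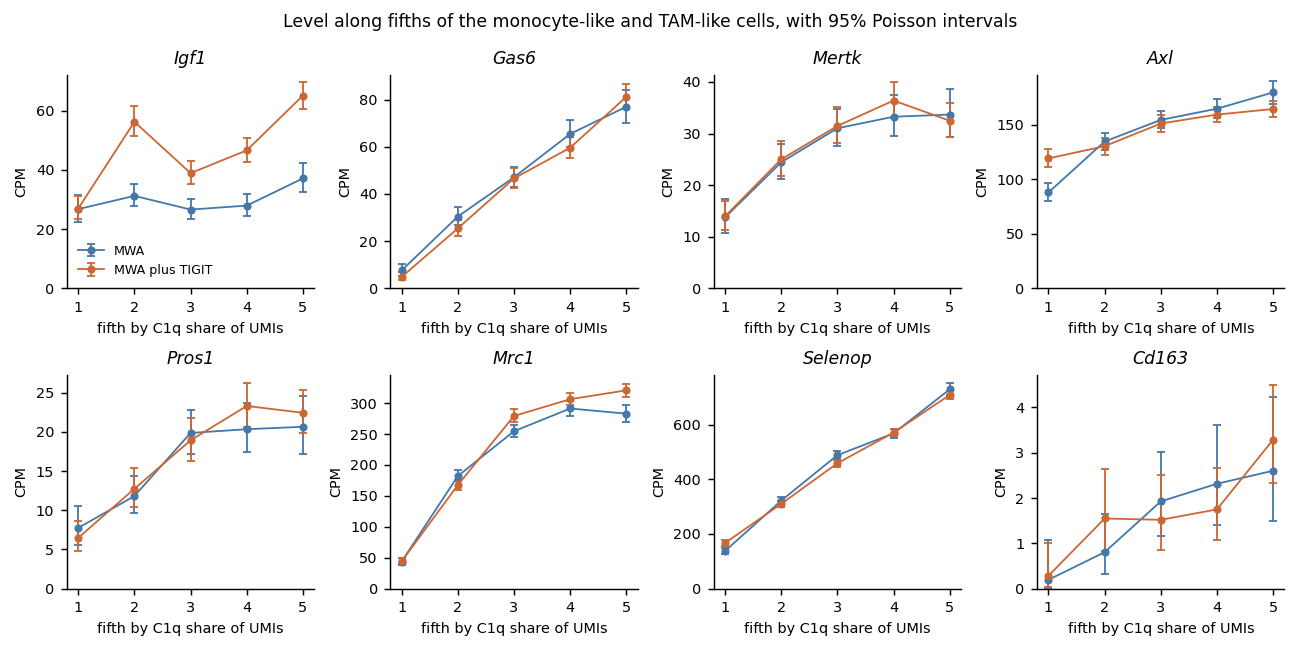
Level of each gene (y axis, CPM, scales differ) in 5 bins of equal cell number of the monocyte-like and TAM-like cells, from the lowest to the highest share of UMIs on C1qa, C1qb and C1qc (x axis), 1 line per library with 95% Poisson intervals. Gas6 and Mrc1 are higher in the upper bins in both libraries, and the lines of Igf1 meet in the lowest bin, at 26.7 and 26.9 CPM.

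Likeness to other genes was measured over 23 classes of the sort on log2(CPM + 1). By the lower of the libraries' Pearson correlations among 4909 genes, Igf1 was most like C1qa (0.871), C1qb and Fblim1. Gas6 was most like Folr2 (0.854), which encodes a folate receptor of resident-type macrophages, Mertk most like Col14a1 (0.935), Apoe and C1qc, and Mrc1 most like C1qa (0.954), C1qb and C1qc. Axl was most like Akr1a1 (0.931), Spint1 and Capns1, Pros1 most like Ctsc (0.843), Man2b1 and Ms4a6c, and Selenop most like Ctsa (0.902), Laptm4a and P2ry6, where Ctsc and Ctsa encode lysosomal enzymes. The closest gene of Cd163, Man2b1, reached 0.688. The classes of a library share its depth and free RNA. Lymphoid classes are among them, so a high value can come from the difference between macrophages and other cells alone. Within the TAM-like states Igf1 was highest in the hypoxic state, where the C1q level was lowest.

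In T-like cells Selenop and Axl were the members with the most UMIs, and their highest subsets are given as a description. Selenop had 57 UMIs in 111 cells and 50 UMIs in 109 cells of a cluster led by Il17a and Trdv4, or 154.7 CPM (117.2 to 200.5) and 131.9 CPM (97.9 to 173.8), while the T-like cells as a whole had 25.1 and 26.9 CPM. That was 7.01-fold (5.20 to 9.30) and 5.43-fold (3.96 to 7.31) the level of the other T-like cells. Treg-like cells, led by Foxp3, had 56.6 CPM of Selenop in each library. Axl had 23.9 CPM (17.4 to 32.1) and 26.7 CPM (19.9 to 35.2) in Treg-like cells, 2.9-fold (2.01 to 4.14) and 3.23-fold (2.27 to 4.53) the level of the other T-like cells.

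The other genes of these pathways that reached the level limit differed little between the libraries in TAM-like cells. Lists were tallied for genes that reached the level limit, against a median log2 ratio of 0.04 over all genes tested, of which 42.4% had an interval above 0 and 18.1% one below 0. Among these genes none but Igf1 was past 1.5-fold, and Igf1 reached the limit only through the combination library, where it was higher. Genes below the limit were not tallied. Some of them were past 1.5-fold on few UMIs, such as Siglecg with 1 and 6 UMIs (2.25) and Igfbp7 with 8 and 2 (-2.34). Of 7 other bridging molecules 6 reached the limit, with a median log2 ratio of 0.06, and the interval lay above 0 for 4 and below 0 for 2. Thbs1, which encodes thrombospondin 1, stood at 103.5 and 69.4 CPM. Its log2 ratio of -0.58 (-0.65 to -0.51) falls just short of 1.5-fold, and its highest class was the neutrophil-like cells. Anxa1, which encodes annexin A1, stood at 169.1 and 145.7 CPM (-0.21), and C1qa at 5193 and 5795 CPM (0.16). Of 21 efferocytosis and scavenger receptors 8 reached the limit, with a median of 0.09 and 6 intervals above 0, among them Msr1 at 355.3 and 417.4 CPM (0.23), Siglec1 at 43.5 and 51.0 CPM (0.23) and Mrc1. Of 19 genes for engulfment and cargo handling 9 reached it, with a median of 0.15 and 8 intervals above 0. The cholesterol exporter gene Abcg1 stood at 47.1 and 61.5 CPM (0.38). Abcg1 and Siglec1 reached the limit only through the combination library, where they were higher. For vitamin K, which the carboxylation of GAS6 and protein S needs, 1 of 3 genes reached the limit, Vkorc1 with 69.6 and 70.7 CPM (0.02). Both shedding proteases that cut AXL and MERTK off the cell, Adam10 and Adam17, had ratios of 0.13 and 0.14. Of the 5 genes of the receptor kinases and their ligands 2 reached the limit, Gas6 and Axl. Of 5 genes for signals that hold off engulfment 3 reached it, with a median of 0.07, and Cd47 stood at 174.1 and 201.7 CPM (0.21).

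In the list of the IGF axis, 2 of 16 genes reached the limit. Beside Igf1 this was Igfbp4, which encodes an IGF-binding protein, at 79.8 and 68.9 CPM with a log2 ratio of -0.21 (-0.29 to -0.13), and its highest class in the MWA library was a T-like cluster led by Dapl1. The receptor gene Igf1r had 159 and 212 UMIs in TAM-like cells, or 4.63 and 4.88 CPM. It was highest in neutrophil-like cells, at 213.8 CPM (128.7 to 333.8) and 267.9 CPM (179.4 to 384.7), from 19 and 29 UMIs in 86 and 81 cells. Of 17 genes for selenoproteins and selenium 10 reached the limit, with a median of 0.04 and 4 intervals above and 2 below 0, and among them were Txnrd1 at 52.6 and 47.9 CPM (-0.14), which reached the limit only through the MWA library, and Selenok at 266.6 and 247.0 CPM (-0.11). Of 9 transcription factors of resident-type macrophages 6 reached it, with a median of -0.08 and 2 intervals above and 4 below 0. Over all genes tested 42.4% had an interval above 0 and 18.1% one below 0. Klf2 stood at 439.1 and 331.0 CPM (-0.41), Klf4 at 313.9 and 258.6 CPM (-0.28) and Maf at 251.4 and 276.4 CPM (0.14). None of them was highest in a TAM-like class. Klf2 was highest in B-like cells in the MWA library and in neutrophil-like cells in the combination library. Klf4 was highest in C1q-low monocyte-like cells and Maf in Treg-like cells in both libraries.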

How the data were processed

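The authors aligned the reads to mm10 (GRCm38) and deposited a filtered matrix of raw UMI counts per gene and barcode for each library. The matrix headers name Cell Ranger 4.0.0 and the submitters' processing notes 6.1.1. By the study's methods doublets were removed, and cells above 5000 UMIs and above 10% mitochondrial counts were taken out. That UMI limit, which 55.2% and 60.3% of the barcodes exceed, was not used for the main values and was run as an alternative. Here barcodes under 200 genes or over 10% mitochondrial UMIs were left out, and doublets were called on simulated doublets by an own nearest-neighbour procedure, which found 70.1% and 71.0% of added doublets. Libraries were integrated and clustered with Seurat 5.3.0 (2000 variable features, 40 components, resolution 0.5 within myeloid and lymphoid cells), with 99 genes, the 8 members and the pathway lists among them, held out. Clusters were named from fixed marker lists. The thresholds for names (C1q list of at least 10000 CPM for TAM-like, cycling list of at least 400 CPM) were set after a first clustering had been seen. UMIs were summed per class and library and divided by the summed UMIs. Intervals were computed with scipy 1.17.1, and TMM factors with edgeR 4.0.16. The intervals were tried on simulated Poisson counts, the model they assume. That trial checks the computation only and cannot bear on spread between cells or libraries. Members and lists were chosen with earlier results of these data known. Beyond the members, named genes are the 3 of each list with the largest absolute log2 ratio among those with at least 50 CPM, list genes whose highest class is no macrophage class, and the 3 genes most like each member. Alternatives changed the UMI and mitochondrial limits, doublets, scaling, weighting of cells, clustering, the choice of TAM-like cells, the filter on low counts and thinning. Sequences came from RefSeq, where all 8 genes matched.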

Additional observations from a re-analysis of the deposited data

Results flagged for a closer look

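The log2 ratio of MWA plus TIGIT over MWA had opposite signs, with counting intervals off 0 on both sides, in different cells for 3 of the genes. For Axl it was 0.11 in cycling and -0.37 in interferon-induced TAM-like cells, and along the C1q content 0.44 in the lowest and -0.13 in the highest of the 5 bins. For Mrc1 it was -0.12 in bin 2, 0.13 in bin 3 and 0.18 in bin 5. For Selenop it was 0.28 in bin 1 and -0.09 in bin 3. The differences between states and between bins were not tested, since each rests on 1 library per group. The share of all genes with such opposite signs was not computed, and in single TAM-like states 10.1% to 28.1% of genes had an interval above 0 and 9.76% to 15.1% one below 0, so the count is no trait of these genes.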

How the results depend on the processing

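No paired analysis was possible because each group had 1 library and no result comes from a test. Over 13 alternatives the log2 ratio of Igf1 in TAM-like cells lay between 0.37 and 0.80. It was 0.74 without the barcodes that both libraries hold, and 0.80 without the hypoxic state and 0.73 with an unnamed low-UMI cluster added, alternatives chosen after seeing the data. Leaving out barcodes with over 5000 UMIs, as the study's methods state, kept only 462 and 298 TAM-like cells and moved most ratios, to 0.37 (-0.28 to 1.01) for Igf1, 0.21 for Gas6, 0.38 for Mertk, 0.22 for Mrc1, and, with a change of sign, -0.46 for Pros1 and -0.04 for Selenop. That setting was clustered anew, and a cluster led by Hspb1 went unnamed and fell out of the TAM-like cells. With doublets kept Cd163 changed sign to -0.36. TMM factors shifted all ratios by -0.03 and put Selenop at 0.04, and totals without mitochondrial and ribosomal genes put Mrc1 at 0.11 and Selenop at 0.03. Weighted by the 5 C1q bins, Gas6 was at -0.06, Selenop at -0.03 and Axl at -0.02, each with a change of sign, and Mrc1 at 0.09. The cause of these moves was not tested. With at least 20 UMIs and no CPM limit, 337 genes were past 1.5-fold higher and 401 lower of 12830, against 7 and 4 of 2546; these added genes had low counts. The ratios of Axl, between -0.04 and 0.01, moved by less than their interval throughout. Depth limits Cd163 most, with 61 and 89 UMIs.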

Other observations

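TAM-like cells held 56.2% and 49.2% of the UMIs of Igf1r, the gene of the IGF1 receptor, yet its level per UMI was highest in other cells. Beside the neutrophil-like cells, the T-like cluster led by Il17a had 12 and 26 Igf1r UMIs, or 32.6 CPM (16.8 to 56.9) in the MWA library and 68.6 CPM (44.8 to 100.5) in the MWA plus TIGIT library. The log2 ratio was 1.07 (0.04 to 2.19). Treg-like cells had 20 and 52 UMIs, or 10.9 and 27.3 CPM, with a log2 ratio of 1.32 (0.56 to 2.15). All T-like cells together, with the Treg-like and Il17a cells among them, had 3.99 and 7.16 CPM, with a log2 ratio of 0.84 (0.39 to 1.31). In no other T-like cluster did the interval leave out 0. The cluster led by Gzma had 4 and 4 UMIs and that led by Cd40lg 10 and 14. The share of all genes with such ratios was not computed in T-like cells. The Igf1r values given here were picked after they had been seen, come from few UMIs and were not tested.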
